A study of Mus musculus with 6 samples.

Results

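The genes described here encode 10 LIM domain proteins of the cytoskeleton: zyxin (Zyx) and its relatives Lpp, Trip6, Ajuba, Limd1 and Wtip, testin (Tes), and the FHL proteins Fhl1, Fhl2 and Fhl3. They were chosen by name, as families reported to bind actin filaments under strain, and each row was found through its Entrez Gene number. All 10 were among the 14883 genes of the table, and 8 had enough counts to be tested. RNA was measured in B16F10luc2, a mouse melanoma cell line carrying a luciferase reporter by its name, grown on elastic-bottomed plates. In 3 libraries the cells had been under cyclic stretch for 24 h, with 15% equibiaxial elongation at 15 cycles per minute, and in 3 libraries they had stayed static in the same kind of plate. The question was how expression differs between stretched and static melanoma cells. All cells were of 1 line. Because nothing in the labels states that replicates came from separate cultures, the p-values reflect spread among these libraries alone, and that spread may be technical.

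A LIM domain is a small fold of paired zinc fingers that binds other proteins. In the zyxin family and in testin the LIM domains lie at the C-terminal end, and FHL proteins consist almost wholly of them. LIM domains of this kind gather on strained or torn stress fibres, and zyxin brings Ena/VASP proteins and alpha-actinin there for repair. Ajuba, LIMD1, WTIP and TRIP6 also bind the LATS kinases, which hold back the growth regulators YAP and TAZ.

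Total counts ran from 20494344 to 36351400 in stretched libraries and from 19469286 to 30042222 in static libraries. The pair of static replicates 2 and 3 differed most, with a chi-square per degree of freedom of 7.24 over genes, against 1.84 to 3.67 for the other 5 pairs within a group. All 8 melanocyte markers were detected, with a sum of 20541 to 21164 CPM (TMM-scaled counts relative to library size) in stretched and 23080 to 25581 CPM in static libraries. Of these markers 3 fell, Pmel, Tyrp1 and Dct (log2 fold changes -0.29, -0.31 and -0.09), and 1 rose, Mitf (0.37). These are 37.5% and 12.5%, against 25.9% and 24.9% of all tested genes. The part of these markers in the results was not tested. Summed leukocyte markers stood at 1.15 to 1.37 CPM in stretched and 1.16 to 1.49 CPM in static libraries, and summed endothelial markers at 1.15 to 1.32 and 1.12 to 1.44 CPM in the same order of groups. Summed fibroblast markers reached 18.4 to 20.6 CPM in stretched and 15.9 to 20.5 CPM in static libraries. Of 4 tested fibroblast markers, Col1a1 fell and Pdgfra rose (log2 fold changes -0.39 and 0.55), while Col1a2 and Postn did not pass (0.30 and -0.029). These are 25% lower and 25% higher, against 25.9% and 24.9% of all tested genes. Among markers of these other types, 12 of 24 had no row here, among them Ptprc, Csf1r, Kdr and Myod1.

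Under stretch, 7 of the 8 tested LIM genes had lower mRNA levels and none was higher. Zyx mRNA was lower by a factor of 2.01, Fhl3 changed by -27.3%, and Trip6, Ajuba, Tes, Wtip and Limd1 changed by -17.1% to -12.3%. Lpp did not pass the test, and Fhl1 and Fhl2 were close to undetected in both groups. A gene was called where its Benjamini-Hochberg adjusted p, from edgeR's quasi-likelihood fit of 12377 genes, was below 0.05. By the same rule 50.9% of all tested genes were called, with 25.9% of tested genes lower and 24.9% higher (3211 and 3087 genes). Scaled by library size alone, the split was 2402 lower and 4115 higher, and 7 members were again called lower. The median log2 fold change of the tested members was -0.26, against 0.0038 over all tested genes and -0.28 over all genes called lower. In all 7 lower members the 3 stretched libraries lay below the 3 static ones, a pattern that 29.4% of all tested genes showed. Against a null of 1.2-fold in edgeR's glmTreat, 2 of the 7 passed, Zyx and Fhl3, where 7.38% of all genes passed as lower. In bulk RNA, fewer cells expressing a gene and less RNA per cell cannot be told apart.

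**Figure D1:**
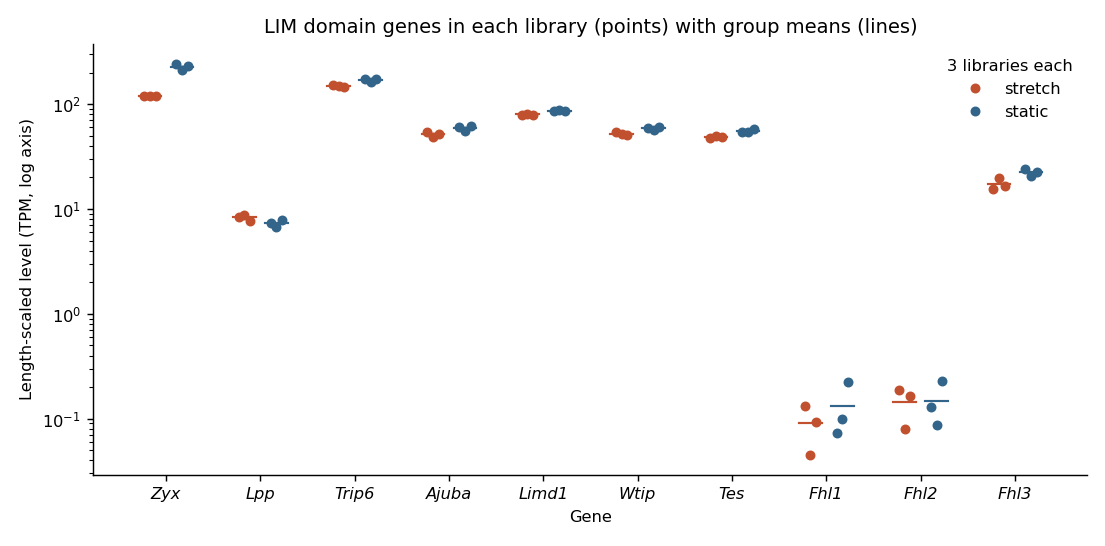
Length-scaled level (TPM, log axis) of each gene in every library, with 3 stretched (left of each pair) and 3 static libraries; short lines are group means. Zyx stands at 118 to 120.4 TPM in stretched and 212 to 244 TPM in static libraries, while Fhl1 and Fhl2 lie below 0.3 TPM in all 6.

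Zyx (Entrez Gene 22793; chromosome 6, 42349511 to 42360213 in GRCm38), the founding member of the family and an adaptor at focal adhesions and stress fibres, gave the largest change among the tested members. It had 138, 138 and 142 CPM in stretched libraries and 298, 264 and 276 CPM in static libraries. The groups were far apart, and static replicate 1 was the highest of the 6. The log2 fold change was -1.004 (SE 0.04, 95% interval -1.10 to -0.91, adjusted p = 2.94e-10), a change of -50.2%. Of all 12377 tested genes, 110 had a log2 fold change as low as that of Zyx, itself included, and 27 had a p as low. Among the 2357 genes with a static mean above 100 CPM, 16 had a log2 fold change as low. The span of Zyx shares 1727 bases with that of Epha1, a receptor kinase gene at only 1.12 CPM in stretched and 1.46 CPM in static cells, which did not pass (adjusted p = 0.201).

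Relative to each of the other 7 tested members, Zyx was lower in every stretched library than in any static library. On the CPM scale, the log2 ratio of Zyx to Lpp was 1.54, 1.48 and 1.70 in stretched libraries and 2.78, 2.68 and 2.58 in static libraries, a difference of -1.11. For Trip6 the ratio differed by -0.73, for Ajuba by -0.74, for Tes by -0.75, for Wtip by -0.76 and for Limd1 by -0.81. The smallest difference was that from Fhl3, at -0.56. None of the 7 ratios overlapped between groups. Each had an exact two-sided permutation p of 0.1 (adjusted p = 0.1 over the 7 ratios), the smallest p that 3 against 3 libraries allow. Zyx fell most among the tested members, so a lower mean ratio to each of the others follows from their fold changes. The lack of overlap is no separate finding about these members, as the Zyx groups were themselves far apart. Ratios of Zyx to all other genes were not computed. The 7 ratios share the same Zyx values and are not independent tests.

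Promoter windows from RefSeq (GRCm38.p6; 250 bases before to 50 after an annotated start) were found for 9 of the 10 genes, in 12 windows. They were searched on both strands for the CArG box (bound by SRF), GGAATG (TEAD factors), TGANTCA (AP-1) and TGATGNAA (ATF4 with C/EBP partners). These occur in 1.63%, 14.7%, 7.81% and 3.97% of all 32851 windows of that length. No motif overlapped another in the windows shown. Shown here are windows of the member that fell most and of the most abundant one in stretched cells by length-scaled level. Windows of the member that did not pass and of a nearly silent one follow. All run 5′ to 3′ on the gene's strand, with motif matches in capitals.
Zyx, chr6:42349578-42349877, plus strand: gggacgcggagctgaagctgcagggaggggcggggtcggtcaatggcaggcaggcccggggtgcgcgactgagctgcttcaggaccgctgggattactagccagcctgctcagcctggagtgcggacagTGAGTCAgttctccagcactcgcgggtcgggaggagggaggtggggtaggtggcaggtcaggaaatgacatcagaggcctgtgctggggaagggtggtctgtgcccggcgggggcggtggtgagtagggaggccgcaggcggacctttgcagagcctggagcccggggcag
Trip6, chr5:137314192-137314491, minus strand: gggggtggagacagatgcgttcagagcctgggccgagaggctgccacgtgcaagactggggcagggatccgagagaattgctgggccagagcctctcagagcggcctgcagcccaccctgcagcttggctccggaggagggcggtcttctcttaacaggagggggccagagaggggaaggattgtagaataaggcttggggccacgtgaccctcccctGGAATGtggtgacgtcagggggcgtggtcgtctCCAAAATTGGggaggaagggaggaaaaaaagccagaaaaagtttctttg
Lpp, chr16:24393100-24393399, plus strand: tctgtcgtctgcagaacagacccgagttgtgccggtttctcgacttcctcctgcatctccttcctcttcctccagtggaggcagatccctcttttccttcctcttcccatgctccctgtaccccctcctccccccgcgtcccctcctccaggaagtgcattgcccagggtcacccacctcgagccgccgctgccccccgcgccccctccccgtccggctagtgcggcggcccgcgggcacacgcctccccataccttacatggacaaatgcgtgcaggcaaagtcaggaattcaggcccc
Fhl2, chr1:43163912-43164211, minus strand: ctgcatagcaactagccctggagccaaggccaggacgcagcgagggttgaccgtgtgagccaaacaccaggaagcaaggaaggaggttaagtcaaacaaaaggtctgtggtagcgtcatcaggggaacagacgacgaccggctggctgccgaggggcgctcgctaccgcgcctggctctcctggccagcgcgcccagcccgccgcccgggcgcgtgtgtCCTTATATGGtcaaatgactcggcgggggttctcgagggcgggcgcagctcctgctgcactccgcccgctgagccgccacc
The starts used for the shown Zyx, Trip6 and Fhl2 windows lie inside the annotated spans of these genes, not at their ends. Bases before such a start can therefore lie within the gene. The Zyx window held 1 TGANTCA match, 121 bases before the start used. The Trip6 window held a CArG box that begins at base 2 from the start used and a GGAATG 32 bases before it. The Lpp window shown held none of the 4 motifs, while the other Lpp window held a GGAATG at position -182 from its start. The Fhl2 window shown held a CArG box 31 bases before the start used. The other Fhl2 window and 1 of the 2 Fhl1 windows also held a CArG box. Wtip had 4 GGAATG matches and Ajuba 2, while the Tes and Fhl3 windows had no match. A match is a string of letters and no measurement of binding.

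Trip6 (Entrez Gene 22051; chromosome 5, 137309898 to 137314480), an adaptor of adhesions that also binds LATS kinases, had the lowest p after Zyx. Its levels were 119, 119 and 116 CPM in stretched libraries and 145, 139 and 143 CPM in static libraries. All stretched libraries were below all static ones, by a margin wider than the spread within either group. The log2 fold change was -0.27 (SE 0.04, adjusted p = 1.78e-05). Under an offset for GC content and transcript length, here called the offset, it was -0.17 (adjusted p = 0.0012), and against 1.2-fold it did not pass (adjusted p = 0.66, glmTreat).

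Ajuba, Limd1 and Wtip form the Ajuba group, scaffolds between junctions, adhesions and the nucleus. Ajuba (Entrez Gene 16475; chromosome 14, 54567469 to 54577661), which also activates the mitotic kinase Aurora A, had 67.7, 60.2 and 65.1 CPM in stretched libraries and 78.4, 73.9 and 79.1 CPM in static libraries. Its lowest value was stretched replicate 2, and the groups did not overlap. The log2 fold change was -0.26 (SE 0.05, adjusted p = 0.000326), and -0.15 under the offset (adjusted p = 0.0094). Limd1 (Entrez Gene 29806; chromosome 9, 123478661 to 123521552), a tumour suppressor that brings LATS to junctions under tension, had 140.3, 143 and 142 CPM in stretched libraries and 162, 166 and 158 CPM in static libraries. The stretched values lay within a narrow band below the static ones. Its log2 fold change of -0.19 was the smallest in size among the 7 (SE 0.04, adjusted p = 0.000433). Under the offset it was -0.13 (adjusted p = 0.0103).

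Wtip (Entrez Gene 101543; chromosome 7, 34109547 to 34133268), named for binding the transcription factor WT1, had 38.4, 37.0 and 37.0 CPM in stretched libraries and 44.2, 43.7 and 44.6 CPM in static libraries. Replicates were close together in both groups, and the log2 fold change was -0.23 (SE 0.04, adjusted p = 0.000386). Under the offset the call was lost: the value became -0.013 with an adjusted p of 0.838. The annotated Wtip transcript has 66.2% GC, the highest of the 10 members, and is 1962 bases long.

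Lpp (Entrez Gene 210126; chromosome 16, 24393350 to 24992578), the closest relative of zyxin and like it a binder of VASP and alpha-actinin, was the one tested member with a positive fold change. It had 47.7, 49.5 and 43.7 CPM in stretched libraries and 43.3, 41.1 and 46.0 CPM in static libraries. The groups overlapped, as stretched replicate 3 lay below static replicate 3. The log2 fold change was 0.11 (SE 0.05, 95% interval -0.0083 to 0.22, adjusted p = 0.113). The call changed with the setting: Lpp passed as higher with library size scaling (0.17, adjusted p = 0.0298), without static replicate 3 (0.15, adjusted p = 0.033) and without stretch replicate 3 (0.15, adjusted p = 0.042), while under the offset the sign turned (-0.10, adjusted p = 0.0619). Its longest annotated transcript has 15459 bases and 42.9% GC, the longest and the lowest in GC of the 10.

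**Figure D2:**
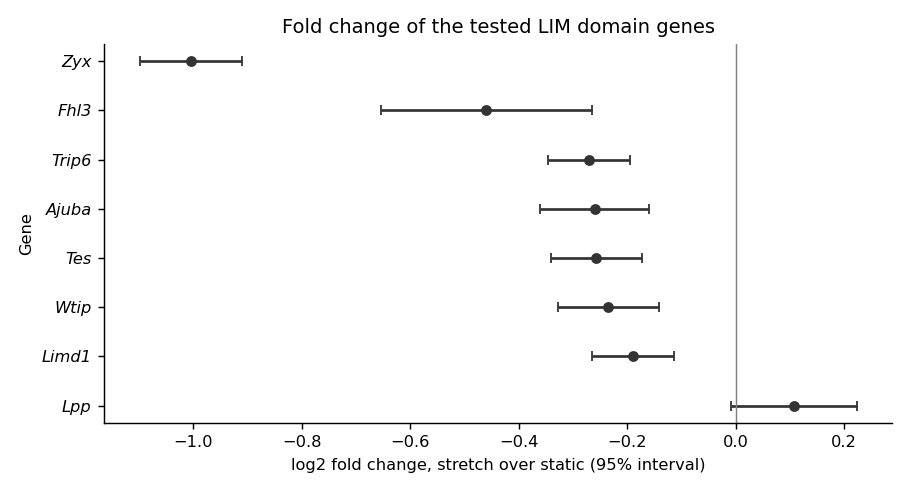
Log2 fold change of stretched over static cells for the 8 tested genes, with 95% intervals from edgeR's quasi-likelihood fit, lowest at the top. Zyx stands apart at -1.004, the next 6 lie between -0.46 and -0.19, and the interval of Lpp, -0.0083 to 0.22, includes 0.

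Tes (Entrez Gene 21753; chromosome 6, 17065149 to 17105825), the testin gene and a candidate tumour suppressor whose protein binds zyxin, also fell. It had 66.0, 68.2 and 68.9 CPM in stretched libraries and 78.7, 80.0 and 83.5 CPM in static libraries. The highest stretched library, replicate 3, lay below the lowest static library, replicate 1. The log2 fold change was -0.26 (SE 0.04, adjusted p = 7.83e-05), and -0.31 under the offset (adjusted p = 8.45e-06). Much of the span of Tes is shared with Gm4876, a non-coding RNA gene at 3.99 CPM in stretched and 3.66 CPM in static cells that did not pass (adjusted p = 0.373).

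Of the FHL family, one gene carried nearly all transcripts. Fhl3 (Entrez Gene 14201; chromosome 4, 124695964 to 124708611), a muscle-rich member, had 9.40, 11.9 and 10.2 CPM in stretched libraries and 15.2, 13.3 and 14.2 CPM in static libraries. Stretched replicate 2 came nearest to the static group, and the groups did not overlap. The log2 fold change was -0.46 (SE 0.09, adjusted p = 0.000662), a change of -27.3%, and it passed against 1.2-fold at an adjusted p of 0.0473 in glmTreat. Summed muscle markers stood at 18.1 to 18.7 CPM in stretched and 22.7 to 27.6 CPM in static libraries. Nearly all of this sum came from Des, the desmin gene, at 18.1 ± 0.291 CPM in stretched and 24.6 ± 2.53 CPM in static cells (SD, n = 3 each). Des was called lower (adjusted p = 0.000154 in edgeR). Myh11 and Ckm had too few counts to be tested, at 0.098 and 0.153 CPM in stretched and 0.048 and 0.111 CPM in static cells. The other 3 of the 6 markers, Myod1, Myog and Actc1, had no row. Any part of muscle-like expression in the Fhl3 result was not tested.

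Fhl1 (Entrez Gene 14199; chromosome X, 56731209 to 56793346), a muscle gene, had 5, 1 and 2 counts in stretched libraries and 2, 2 and 7 counts in static libraries. For Fhl2 (Entrez Gene 14200; chromosome 1, 43123071 to 43198343), a transcriptional cofactor that moves between adhesions and the nucleus, the counts were 4, 1 and 2 in stretched libraries and 2, 1 and 4 in static libraries. Both were under the count filter and were not tested, and at this depth no difference was detectable. Fhl3 made up 98.6% ± 0.71 of the length-scaled FHL transcripts in stretched and 98.8% ± 0.63 in static cells (SD, n = 3 each), and Fhl2 0.859% ± 0.41 and 0.648% ± 0.297 in the same order.

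Levels between genes were compared in TPM, estimated counts divided by the longest annotated transcript and scaled to the same total in each library. TMM factors were not applied to TPM, so its changes between groups can differ from the fold changes above. On this scale the order of the leading members changed. In CPM, with no length scale, Trip6 at 118 stood below Zyx at 139 and Limd1 at 142 in stretched cells. In stretched cells Trip6 was highest at 148 ± 3.39 TPM, before Zyx at 119 ± 1.05 TPM. In static cells Zyx led at 228 ± 16.1 TPM, before Trip6 at 171 ± 6.05 TPM (SD, n = 3 each). In neither group did these genes overlap. Limd1 followed Trip6 and Zyx in both, at 79.8 ± 0.997 TPM in stretched and 86.9 ± 0.503 TPM in static cells. Ajuba, Wtip and Tes followed between 48.8 and 52.2 TPM in stretched and between 55.6 and 59.3 TPM in static cells. On this scale, neighbours in that trio overlapped in both groups. Next came Fhl3 at 17.3 ± 2.16 TPM in stretched and 22.3 ± 1.73 TPM in static cells, then Lpp at 8.30 ± 0.587 and 7.34 ± 0.554 TPM, which overlapped with none of its neighbours.

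The 6 zyxin family genes summed to 467, 459 and 454 TPM in stretched libraries and 631, 583 and 621 TPM in static libraries. Without Zyx, the other 5 summed to 341 ± 6.77 TPM in stretched and 383 ± 10.9 TPM in static cells. Zyx made up 25.6%, 25.8% and 26.5% of the family sum in stretched libraries and 38.7%, 36.3% and 37.0% in static libraries. Each of the other members took a larger share under stretch: Trip6 had 32.3% ± 0.464 in stretched and 28.0% ± 0.34 in static cells, and Limd1 17.3% ± 0.296 and 14.2% ± 0.676. Such shares sum to a whole, so a loss of Zyx raises the others. With the mean transcript length in place of the longest, Zyx had 25.7% in stretched and 37.1% in static cells. The place of Ajuba depended on this choice. With the longest transcript it made up 11.3% in stretched and 9.69% in static cells, near Wtip at 11.4% and 9.61%. With the mean length it made up 5.87% to 6.55% in stretched and 5.32% to 5.57% in static libraries, below Wtip at 10.2% to 10.5% and 8.505% to 8.92% in the same order of groups.

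**Figure D3:**
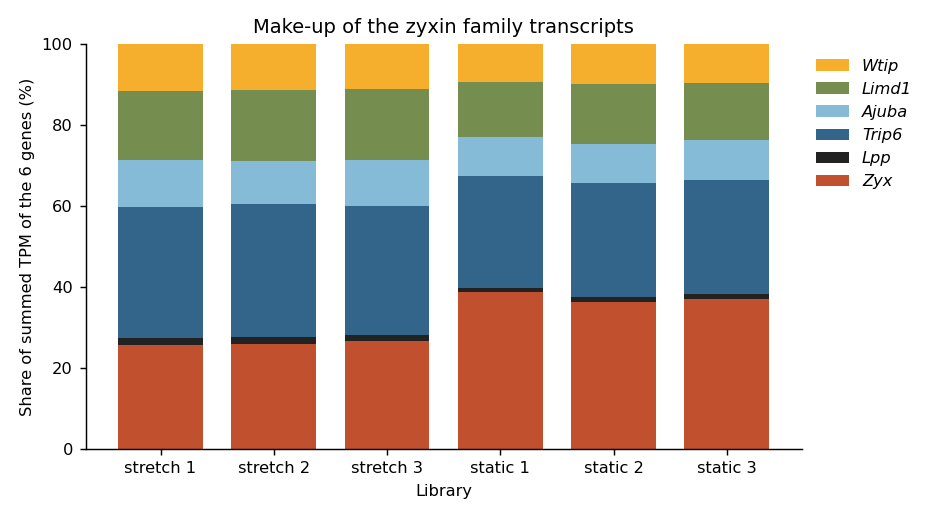
Share of each gene in the summed TPM of the 6 zyxin family genes (%), one bar per library, stretched left and static right. The Zyx portion is 25.6% to 26.5% in stretched and 36.3% to 38.7% in static libraries, and Lpp is the thinnest band in all 6.

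**Figure D4:**
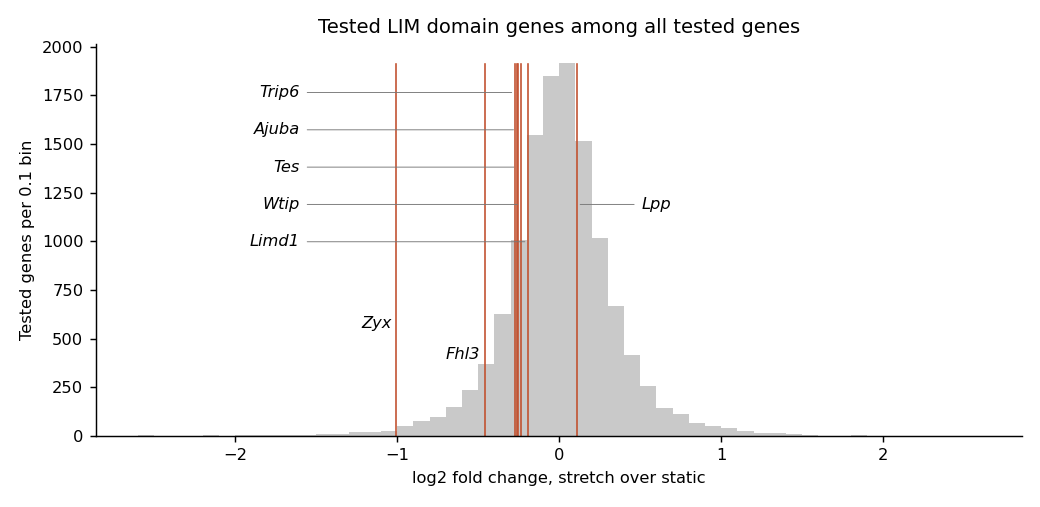
Number of tested genes per bin of log2 fold change (stretched over static, grey; values past the axis are put in the end bins), with the 8 tested LIM domain genes as lines. Zyx lies in the lower tail, Fhl3 at -0.46, the other 5 lower members between -0.27 and -0.19, and Lpp at 0.11.

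The genes most like Zyx over the 6 libraries, by Euclidean distance between mean-centred log2 CPM, were Hspb7, Ppp1r15a and Slc38a7, at distances of 0.0798, 0.0985 and 0.12 among 12376 genes. Hspb7, a small heat shock protein gene of muscle, had 10.4, 10.6 and 10.9 CPM in stretched libraries and 22.4, 20.5 and 20.0 CPM in static libraries. For Ppp1r15a, the gene of a stress-induced phosphatase subunit, the values were 15.9, 15.0 and 15.8 CPM in stretched and 32.3, 28.8 and 28.9 CPM in static libraries. Slc38a7, an amino acid transporter gene, averaged 60.8 ± 0.664 CPM in stretched and 117 ± 2.16 CPM in static cells (SD, n = 3 each). In each of the 3, static replicate 1 was highest, as in Zyx. They were picked for closeness to Zyx over these same 6 libraries, so this likeness is no separate finding.

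Other LIM domain genes of adhesions and actin, outside the 10, moved in both directions. Of 29 tested genes, 8 fell (27.6%) and 4 rose (13.8%), against 25.9% and 24.9% of all tested genes. The median log2 fold change was -0.035. Those that fell with the lowest p were Micall2, Lims1 and Lasp1. Micall2, a Rab effector at junctions, had 24.97 ± 1.19 CPM in stretched and 37.4 ± 1.53 CPM in static cells (log2 fold change -0.58, adjusted p = 6.52e-07). Lims1, the PINCH adaptor of integrin-linked kinase, fell to 137 ± 1.07 CPM in stretched cells, against 178 ± 9.88 CPM in static cells. Lasp1, an actin-binding adaptor, had 197 ± 2.97 CPM in stretched and 247 ± 14 CPM in static cells. Those that rose with the lowest p were Limch1, an activator of non-muscle myosin, at 95.03 ± 1.59 CPM in stretched and 76.4 ± 2.21 CPM in static cells, Mical1, an actin-oxidising enzyme, and Ablim1, an actin-binding LIM protein (log2 fold changes 0.31, 0.33 and 0.18). Ablim1 did not pass without stretch replicate 2, and the count that rose was then 2. A test of the 10 members against these genes was not made.

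Among genes of actin-side partners of zyxin and testin, 6 of 13 tested fell and 1 rose. These are 46.2% and 7.69%, against 25.9% and 24.9% of all tested genes. The list's median log2 fold change was -0.044. Bcar1, the gene of the stretch-sensitive docking protein p130Cas, had 75.2 ± 2.21 CPM in stretched and 101 ± 6.08 CPM in static cells (log2 fold change -0.42, adjusted p = 2.84e-06). Flna, the filamin A crosslinker gene, had 822 ± 12.1 CPM in stretched and 997 ± 43.8 CPM in static cells. Tln1, the talin gene, had a log2 fold change of -0.14, and its call was lost under the offset (-0.10, adjusted p = 0.0552). The gene that rose was Enah, an Ena/VASP protein brought to adhesions by zyxin (log2 fold change 0.20). It too lost its call under that offset (0.046, adjusted p = 0.411). Of the other Ena/VASP genes, Vasp was called lower, though its groups overlapped, and Evl did not pass (log2 fold changes -0.14 and 0.021). Of the alpha-actinin genes, Actn4 was called lower and Actn1 did not pass (-0.10 and -0.022). Without static replicate 2, the genes that rose numbered 2.

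In the Hippo pathway, whose LATS kinases the Ajuba group binds, 4 of 15 genes fell and 2 rose, with a median of -0.044. These are 26.7% and 13.3%, against 25.9% and 24.9% of all tested genes. Lats2 had 46.7 ± 1.7 CPM in stretched and 61.3 ± 0.161 CPM in static cells, and Wwtr1, the TAZ gene, 47.8 ± 1.94 and 62.9 ± 0.556 CPM in the same order (log2 fold changes -0.39 and -0.40, adjusted p = 2.46e-06 and 2.31e-06 in edgeR). Nf2, the merlin gene, had a log2 fold change of -0.17, and its call was lost under the offset (adjusted p = 0.0563). The DNA-binding partners Tead1, whose groups overlapped, and Tead2 rose (0.21 and 0.15). Both calls were fragile: Tead1 did not pass under the offset or without stretch replicate 1 or 2, and Tead2 did not pass in DESeq2, without static replicate 1 or 2 or without stretch replicate 2 or 3. The count that rose was 1 without static replicate 1 or 2 and 0 without stretch replicate 2.

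Other partners of the zyxin family went both ways, with 3 of 15 tested genes lower, 6 higher and a median of 0.024. These are 20% and 40%, against 25.9% and 24.9% of all tested genes. Sqstm1, the autophagy receptor p62 that LIMD1 and Ajuba bind, had 1062 ± 10.9 CPM in stretched and 1851 ± 18 CPM in static cells (log2 fold change -0.80, adjusted p = 1.26e-10). Egln1 and Vhl, the oxygen sensor and ubiquitin ligase subunit that LIMD1 joins, had log2 fold changes of -0.43 and -0.18, and Vhl did not pass with library size scaling. Etv5, a transcription factor gene, had 6.89 ± 0.249 CPM in stretched and 3.82 ± 0.161 CPM in static cells. Aurka, the Aurora A gene, had 123 ± 2.74 CPM in stretched and 94.2 ± 2.19 CPM in static cells, and Dcp2, an mRNA decapping enzyme gene, 48.4 ± 0.545 and 36.6 ± 0.644 CPM in the same order (log2 fold changes 0.86, 0.39 and 0.40 for Etv5, Aurka and Dcp2).

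The list of SRF and MRTF genes, actin-regulated transcription factors and their targets, held 16 tested genes, of which 6 fell and 3 rose (median -0.023). These are 37.5% and 18.75%, against 25.9% and 24.9% of all tested genes. Cnn2, a calponin gene, had 65.8 ± 1.02 CPM in stretched and 86.1 ± 4.21 CPM in static cells (log2 fold change -0.38). Ccn1 had a log2 fold change of -0.32. Flna, which also fell, was in both this list and that of actin-side partners, as were Vcl and Actn1. The 3 that rose, Mrtfb (whose groups overlapped), Tpm1 and Tpm4, changed by 0.15, 0.10 and 0.10. Each of these rises lost its call in at least 4 of 17 alternatives, and 1 gene rose without static replicate 1 or without any one of the stretched replicates. The others that fell were the factor genes Srf and Mrtfa and the target Ccn2, with log2 fold changes of -0.19, -0.12 and -0.51. Among those that did not pass, Actb, Vcl and Actn1 had log2 fold changes of 0.037, -0.002 and -0.022.

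**Figure D5:**
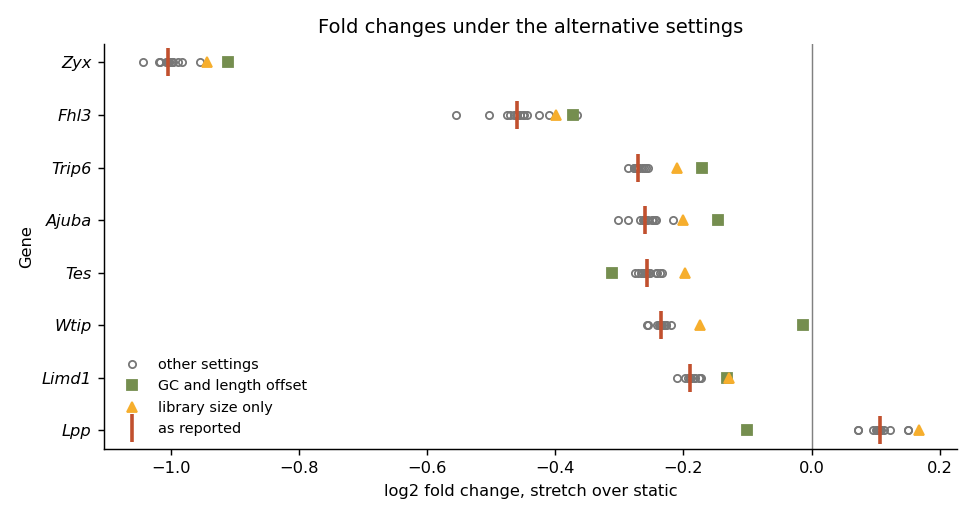
Log2 fold change (stretched over static) of the 8 tested LIM domain genes as reported (red bars), with a GC and length offset (squares), with library size scaling (triangles) and with the other alternatives (circles). Zyx stays between -1.04 and -0.91, Wtip reaches -0.013 and Lpp reaches -0.10 with the offset.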

How the data were processed

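RNA from 3 stretched and 3 static samples was sequenced by BGI procedures, per the labels. The authors deposited estimated counts per Entrez gene as whole numbers, unscaled. Salmon 1.4.0 is named in the submitters' processing notes, beside the genome builds mm10 and GRCm38. For its index, strand setting and rounding, no statement is given in the sources used here. Such counts assign shared reads among alike transcripts by estimation, which adds uncertainty for paralogs. Every gene had at least 10 counts over the 6 libraries.

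Symbols and positions came from RefSeq (GRCm38.p6), which matched 14875 of 14883 numbers. Length and GC were those of each gene's longest transcript in GENCODE M21. Counts, rounded where needed, were filtered by filterByExpr (minimum count 10), which left 12377 genes, scaled by TMM (factors 0.966 to 1.02) and fitted by edgeR 4.0.16 (R 4.3.3) with the group alone, two-sided, with Benjamini-Hochberg adjustment over all tested genes. The biological coefficient of variation was 3.6%. Alternatives used DESeq2 1.42.0, limma 3.58.1, other scalings and filters, glmTreat, a replicate block, an offset per library from splines on GC and log2 length, thinning to 19469286 counts, and leaving out each library. The members and lists were chosen with earlier results of these data known. Named outside the members were, per list, the 3 called genes of lowest p in each direction, and the 3 genes nearest to Zyx. Actb, Vcl, Actn1, Srf, Mrtfa, Ccn2, Vasp, Evl, Actn4, Epha1 and Gm4876 were named outside that rule, after their values were seen. So were the marker genes Des, Myh11, Ckm, Pmel, Tyrp1, Dct, Mitf, Col1a1, Col1a2, Pdgfra and Postn. Marker genes without a row were not analysed here.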

Additional observations from a re-analysis of the deposited data

How the results depend on the processing

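Zyx and Fhl3 passed as lower in all 17 alternatives, with log2 fold changes of -1.04 to -0.91 and -0.56 to -0.37. Trip6, Ajuba, Limd1 and Tes passed in 16 each and lost their call only against 1.2-fold (glmTreat adjusted p = 0.66, 0.827, 1 and 0.875). Wtip lost it there (adjusted p = 1) and with the GC and length offset, where 6 members were lower. The 1.2-fold test left 2 members lower, not 7, and 913 genes lower and 679 higher, not 3211 and 3087. The reversed value was that of Lpp with the offset, -0.10. Members called higher numbered 1, Lpp, with library size scaling, and 0 to 1 when a library was left out. The cause was not tested, except that glmTreat asks for a larger change. The Zyx share in stretched cells was 25.4% of unscaled counts, not 26.0%.

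Leaving out 1 library gave 7 lower members each time. With library size scaling the median of all genes shifted by 0.06. The labels state no pairing of samples by replicate number. Deviations of same-numbered libraries from their group means correlated at 0.0076, 0.027 and -0.056, and not every library correlated best with its own number. With 3 libraries per group, such values cannot settle whether samples were paired. With the replicate block, 7 members fell, and 3043 genes fell and 2924 rose.

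Against 1.2-fold, the lists counted 2 lower of 8 and 0 higher of 4 (other LIM genes), 1 of 6 and 0 of 1 (actin-side partners), 2 of 4 and 0 of 2 (Hippo), 2 of 3 and 3 of 6 (other partners) and 1 of 6 and 0 of 3 (SRF and MRTF). The offset gave 5 lower other partners and 1 higher Hippo gene, and library size scaling 5 higher Hippo genes and 2 higher actin-side partners. These list alternatives were chosen after seeing the data. Fhl1 and Fhl2 are limited by depth, at 1 to 7 counts per library.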
